A study of Mus musculus with 4 samples.

Results

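The genes described here encode the nuclear-encoded subunits of the 5 complexes of oxidative phosphorylation. They were chosen by symbol alone (Nduf, Sdh, Uqcr, Cox and Atp5 patterns, with assembly factors and pseudogenes left out), which gave 82 of the 32285 genes counted. The patterns pass over a few true subunits, among them Cox4i1, Ndufab1 and Cyc1, and these are given separately. Single cells of adult mouse colon (strain C57/BL6J) were profiled in 2 batches with a droplet 3' kit that counts unique molecular identifiers (UMIs). Each batch pooled 4 conditions, each marked with its own hashtag antibody: wild type and JUP-KO (knockout of the gene for plakoglobin, a cell junction protein), both without treatment and after dextran sulfate sodium (DSS), which damages the gut epithelium and causes colitis. The labels name no promoter or Cre driver for the knockout. The labels do not say whether each batch came from its own mice. A p-value here measures differences between groups against how much such differences vary between the 2 batches, and that spread may be technical.

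Oxidative phosphorylation takes electrons from NADH at complex I and from succinate at complex II, passes them through complex III to oxygen at complex IV, and uses the proton gradient so made to form ATP at complex V. All subunits of complex II and most of those of the other 4 complexes are encoded in the nucleus, while 13 subunits are encoded in mitochondrial DNA. Absorptive cells of the colon surface are known to burn the bacterial fatty acid butyrate in their mitochondria. Mature neutrophils are known to hold few mitochondria and to rely mainly on glycolysis.

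The analysis kept 7152 cells in batch 1 and 6466 in batch 2, with a median of 12321.5 and 7105 UMIs per cell, and 14 barcodes occurred in both batches. Cell classes were gated on marker lists, and 11 classes held at least 20 cells in both batches. Their leading genes held markers of their own list, such as Aqp8, Car4 and Slc26a3 for colonocyte-like cells, Muc2 for goblet-like cells, and S100a8 and S100a9 for neutrophil-like cells. Cells with both epithelial and neutrophil or macrophage markers (478 and 509) were set aside as mixed. Hashtags are reported by the name of the deposited feature, because 2 readings are possible. Read literally, Ctrl_DSS means DSS-treated wild type and TG_WT means JUP-KO without DSS, whereas the order of the antibodies makes these change places. The labels of the other two mean the same in both readings: wild type without DSS for Ctrl_WT and DSS-treated JUP-KO for TG_DSS. Jup, the targeted gene, was lowest under Ctrl_DSS. In epithelial-like cells of batches 1 and 2 it stood at 14.0 and 8.77 CPM (counts-per-million, the UMIs of a gene scaled to all UMIs of a group, mitochondrial ones included) under Ctrl_DSS, 71.0 and 65.3 under Ctrl_WT, 77.3 and 102 under TG_WT, and 23.3 and 76.5 under TG_DSS. These values go against the reading by name for Ctrl_DSS and TG_WT, and in batch 2 the cells labelled TG_DSS, a knockout in both readings, lay above Ctrl_WT. For this reason no direction below is assigned to the knockout or to DSS.

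The promoters of 4 members show the range of sequence found before these genes. They are the isoform pair Cox7a1 and Cox7a2 and the complex IV subunit Ndufa4, whose class patterns are described below, and Cox6a1, which holds motif matches. They were picked after their values were seen. Each line gives RefSeq bases ahead of the annotated gene start on GRCm38.p6, 5' to 3' on the strand of the gene, with matches to the motif of NRF1, a factor known to act on respiratory genes, in capitals.
Cox7a1 (chr7:30183921-30184143, + strand): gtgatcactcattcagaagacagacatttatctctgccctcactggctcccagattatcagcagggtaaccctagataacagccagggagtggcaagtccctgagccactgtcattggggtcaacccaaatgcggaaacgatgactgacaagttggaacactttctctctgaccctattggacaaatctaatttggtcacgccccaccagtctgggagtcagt
Cox7a2 (chr9:79759879-79760103, - strand): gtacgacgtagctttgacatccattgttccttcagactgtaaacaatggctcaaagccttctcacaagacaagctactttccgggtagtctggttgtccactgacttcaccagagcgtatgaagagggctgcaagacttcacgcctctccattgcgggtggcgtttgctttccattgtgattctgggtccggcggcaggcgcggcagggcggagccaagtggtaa
Ndufa4 (chr6:11907498-11907700, - strand): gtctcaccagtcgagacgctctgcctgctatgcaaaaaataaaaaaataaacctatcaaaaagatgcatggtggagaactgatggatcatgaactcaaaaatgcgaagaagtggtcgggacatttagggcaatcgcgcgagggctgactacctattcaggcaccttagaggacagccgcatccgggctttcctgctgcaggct
Cox6a1 (chr5:115348982-115349208, - strand): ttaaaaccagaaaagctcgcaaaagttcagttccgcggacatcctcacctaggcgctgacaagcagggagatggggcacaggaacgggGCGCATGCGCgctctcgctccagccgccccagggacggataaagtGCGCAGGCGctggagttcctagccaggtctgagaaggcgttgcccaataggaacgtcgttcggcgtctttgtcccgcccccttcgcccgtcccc
The motifs were searched on both strands in windows of 300 bases, and 67 of the 82 members had such a window. The core motif of NRF1 was searched as GCGCANGCG and was held by 20 of 67 members (29.9%), against 7.03% of 27025 genes. The ETS core CCGGAAG, bound by GABPA, was held by 17 members (25.4%, against 9.93%). AAGATGGCG, the motif of YY1, was held by 7 members (10.4%, against 1.64%). AAGGTCA, the half-site of the estrogen-related receptor ESRRA, was held by 8 members (11.9%, against 5.38%). Overlapping matches in a window were counted once per gene. None of the printed stretches of Cox7a1, Cox7a2 and Ndufa4 held these letters, which says nothing of whether the factors bind there. The capitals in Cox6a1 mark NRF1 matches, of which the first stretch holds overlapping ones, and its ETS match lies in the bases not printed.

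Summed over the 82 genes, the nuclear-encoded subunits differed widely between cell classes. They differed less between batches, though enteroendocrine-like (2.31% ± 0.488) and neutrophil-like cells (0.814% ± 0.154, SD, n = 2 batches) varied for their level. The summed level is the share of non-mitochondrial UMIs that fell on these genes. Each class sum pooled all kept cells of a batch, with 1 hashtag, several or none, so the 4 conditions were pooled. The mix of tags differed between classes. Of neutrophil-like cells, 601 of 781 and 527 of 1058 carried TG_DSS alone, while 85.2% and 80.9% of colonocyte-like cells carried no tag. The part of condition in the class levels was not tested. Colonocyte-like cells had the highest level of the 11 classes, 7.54% in batch 1 and 7.66% in batch 2 (7.60% ± 0.0853, SD, n = 2 batches). Stem/transit-amplifying-like cells followed at 5.86% in both batches, then goblet-like cells at 5.14% and 5.20%, and tuft-like cells at 4.27% and 4.44%. These 4 epithelial classes did not overlap with each other or with any other class. Enteroendocrine-like cells, the hormone-secreting cells of the epithelium, stood apart from the other epithelial classes at 2.65% and 1.96%.

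Of the classes outside the epithelium, 4 lay close together. Dendritic-like cells had 2.55% and 2.46%, macrophage/monocyte-like cells 2.44% and 2.43%, lymphocyte-like cells (T, NK and innate lymphoid) 2.38% and 2.56%, and fibroblast-like cells 2.20% and 2.24%. The lymphocyte-like range enclosed those of the dendritic-like and macrophage/monocyte-like cells, and all 3 lay within the enteroendocrine-like range. B-like cells, with 26 and 21 cells, had 1.69% and 1.89%. Neutrophil-like cells had 0.705% and 0.923%, below every other class of the 11 in both batches. The colonocyte-like level was 9.50-fold ± 1.70 (SD, n = 2 batches) the neutrophil-like level. In free RNA, from barcodes with at most 100 UMIs, these genes took 6.15% and 6.21% of non-mitochondrial UMIs. This was more than in each of the 11 classes except colonocyte-like cells. The part of free RNA in the levels of the classes was not tested.

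**Figure D1:**
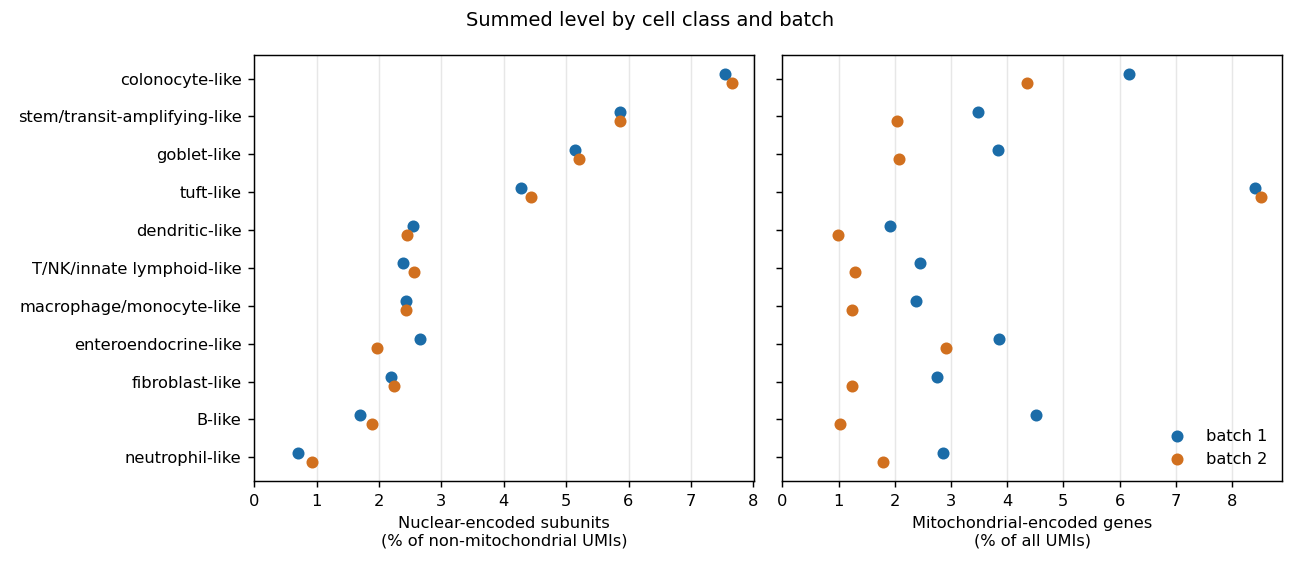
Summed level of the 82 nuclear-encoded subunits (left, percent of non-mitochondrial UMIs) and of mitochondrial-encoded genes (right, percent of all UMIs) in 11 cell classes. Each point is 1 batch. The left panel falls from 7.60% in colonocyte-like to 0.814% in neutrophil-like cells (means of 2 batches), and the right panel is highest in tuft-like cells.

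The mitochondrial-encoded genes did not follow the same order. Tuft-like cells had the highest share of mitochondrial UMIs of the 11 classes, 8.41% and 8.52% of all UMIs, against 6.17% and 4.35% in colonocyte-like cells. Stem/transit-amplifying-like cells, second for the nuclear-encoded subunits, had 3.47% and 2.04%. Set against each other, neutrophil-like cells held 4.18 and 1.98 mitochondrial UMIs for each UMI of a nuclear-encoded subunit. Colonocyte-like cells held 0.872 and 0.593, stem/transit-amplifying-like cells 0.613 and 0.356, and tuft-like cells 2.15 and 2.10. The mitochondrial share was higher in batch 1 than in batch 2 in 10 of these 11 classes, tuft-like cells being the exception. In free RNA mitochondrial UMIs took 18.8% and 10.6% of all UMIs in batches 1 and 2, more than in any of the 11 classes. The part of free RNA in these shares, ratios and batch differences was not tested.

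The 5 complexes made up the summed level in different proportions. Genes were assigned to complexes by symbol, so Ndufa4 counts as complex I throughout. Complex IV, the cytochrome c oxidase, took 33.1% and 34.5% of the members' UMIs in colonocyte-like cells, the highest of the 11 classes in both batches. It took 28.1% and 27.6% in stem/transit-amplifying-like, 23.9% and 22.2% in enteroendocrine-like and 22.4% and 22.6% in fibroblast-like cells. Complex I, the NADH dehydrogenase, ran the other way, with 24.8% and 24.3% in colonocyte-like and 34.2% and 34.1% in fibroblast-like cells. Complex II, which also belongs to the citric acid cycle, held between 0.903% and 1.71% in each class and batch. These shares compare classes for the same genes, not genes with each other.

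Within a class the level per cell varied most in differentiated epithelial cells. In colonocyte-like cells the 10th and 90th percentiles were 1.31% and 10.3% in batch 1 and 1.48% and 10.2% in batch 2. In stem/transit-amplifying-like cells they were 3.65% and 7.46%, and 3.87% and 7.45%. Shallow colonocyte-like cells tended to have low levels. Among colonocyte-like cells split into 3 equal groups by UMIs, the shallowest had median levels of 2.56% and 2.52%, and the deepest 8.08% and 8.51%. Median UMIs per cell were 4816 and 4725 in the shallowest group and 24969 and 25800 in the deepest. Colonocyte-like cells below the median level had a median of 11.2% and 9.82% mitochondrial UMIs, and those above it 4.59% and 2.94%. Those removed by the limit of 25% mitochondrial UMIs, with between 25% and 50%, had 2.37% and 2.22% nuclear-encoded subunits. The part of cell damage in these low levels was not tested. The deepest groups of the other classes had 5.94% and 5.89% in stem/transit-amplifying-like, 5.32% and 5.50% in goblet-like and 2.45% and 1.93% in enteroendocrine-like cells.

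**Figure D2:**
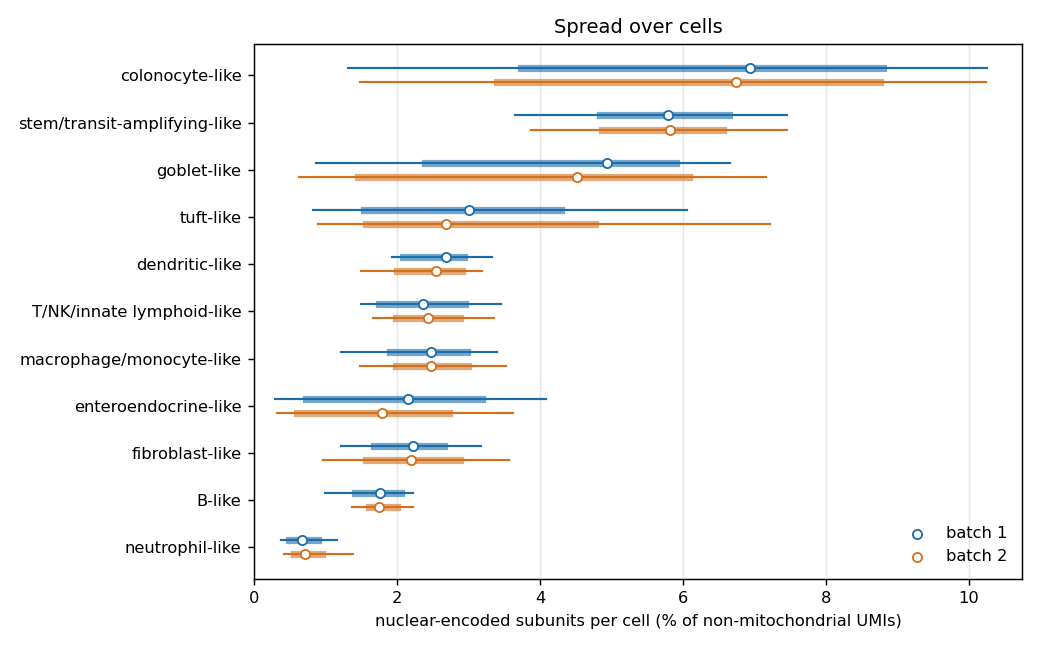
Percent of non-mitochondrial UMIs on nuclear-encoded subunits per cell in 11 classes, by batch. Thin lines run from the 10th to the 90th percentile, thick lines from the 25th to the 75th, and circles are medians. Colonocyte-like cells spread from 1.31% to 10.3% in batch 1, neutrophil-like cells from 0.370% to 1.17%.

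Single members were tested on UMI counts summed per class and batch with edgeR's quasi-likelihood test, in 1 fit of 11 classes with batch as a block and Benjamini-Hochberg adjustment over 13805 genes. These sums pooled the 4 conditions as above, and the part of condition in the class differences was not tested. A member is called higher or lower at an adjusted p under 0.05. Of the 82 members, 77 passed the filter on low counts. The other 5 are isoforms known from muscle, testis or hypoxia: Cox6a2 (139 UMIs over all kept cells), Cox8b (107), Ndufa4l2 (30), Cox7b2 (3) and Cox8c (0). The trimmed-mean (TMM) scaling of edgeR left the median of all genes between -0.16 and 0.01 on the log2 scale. Scaling by the total UMIs alone, chosen after seeing the data, moved that median by 0.34 (stem/transit-amplifying-like against colonocyte-like), 0.17 (goblet-like), 0.72 (enteroendocrine-like), -0.02 (macrophage/monocyte-like) and -1.08 (neutrophil-like against macrophage/monocyte-like) on the log2 scale. Medians of lists are therefore also given relative to all genes. Shares of all genes called are given for edgeR with TMM only, so counts under other settings have no such share beside them.

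Stem/transit-amplifying-like cells, which divide and renew the epithelium, had lower counts than colonocyte-like cells for 41 of 77 members and higher counts for 2. Of all genes tested, 27.1% were lower and 23.8% higher. The median log2 fold change was -0.56 over the members and -0.05 over all genes, so the members lay 0.51 below the median gene with TMM and 0.49 below with library-size scaling (log2 differences of -0.51 and -0.49). By complex, 19 of 36 complex I, 3 of 4 complex II, 3 of 8 complex III, 10 of 12 complex IV and 6 of 17 complex V members were lower. The largest decrease was that of Cox7a1, a complex IV isoform known from heart and muscle, with -3.64 ± 0.26 (log2 fold change ± SE, adjusted p 1.29e-10). Ndufa6 (-1.57 ± 0.24), Uqcrb (-1.52 ± 0.27), Ndufa1 (-1.27 ± 0.26), Ndufv3 (-1.18 ± 0.23), Cox7a2 (-1.14 ± 0.26), Cox6c (-1.13 ± 0.28), Uqcrfs1, the Rieske iron-sulfur protein of complex III (-1.07 ± 0.23), Cox5a (-1.06 ± 0.28) and Cox6a1 (-1.05 ± 0.26) completed the 10 lowest. Ndufa4 (0.71 ± 0.27, adjusted p 0.032) and Cox6b2 (2.66 ± 0.33, adjusted p 3.01e-07) were the 2 higher members. With library-size scaling 65.2% in place of 46.8% of all calls were higher, and the share of all genes called lower is not given here. The called count of 43 became 16 with that scaling (2 higher, 14 lower). It also became 16 without colonocyte-like batch 2, 24 without stem/transit-amplifying-like batch 1 and 14 without stem/transit-amplifying-like batch 2, where the lone sum is assumed to vary like the other classes.

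Goblet-like cells, the mucus-secreting cells, were lower than colonocyte-like cells in 53 of 77 members and higher in 1. Of all genes, 21.6% were lower and 18.6% higher. The median was -0.72 over the members and 0.01 over all genes. Complex IV had 10 of 12 members lower, complex I 25 of 36, complex V 11 of 17, complex III 4 of 8 and complex II 3 of 4. The lowest were Cox7a1 (-1.85 ± 0.23), Cox5a (-1.40 ± 0.28), Uqcrb (-1.29 ± 0.26), Sdhb, the iron-sulfur subunit of complex II (-1.24 ± 0.23), Cox6c (-1.22 ± 0.28), Cox5b (-1.21 ± 0.27), Ndufa6 (-1.20 ± 0.24), Uqcrfs1 (-1.17 ± 0.23), Sdha, the flavoprotein of complex II (-1.15 ± 0.17), and Uqcrc1 (-1.12 ± 0.20). Ndufa4 was the higher member (0.76 ± 0.27, adjusted p 0.0283). The count of 54 became 35 with library-size scaling (1 higher, 34 lower, and 58.6% in place of 46.3% of all calls higher). It became 24 without colonocyte-like batch 2, 25 without goblet-like batch 1 and 24 without goblet-like batch 2.

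Enteroendocrine-like cells were lower than colonocyte-like cells in 76 of 77 members and higher in 0. Of all genes, 27.1% were lower and 23.5% higher. The median was -2.23 over the members and -0.16 over all genes, and relative to all genes it was -2.06 with TMM and -2.05 with library-size scaling. The decrease had a median of -2.90 in complex IV, -2.37 in complex III, -2.21 in complex V and -2.08 in complexes I and II. Cox7a1 (-4.05 ± 0.32), Cox5a (-3.69 ± 0.31), Cox7b (-3.50 ± 0.32), Uqcrb (-3.37 ± 0.29), Cox5b (-3.29 ± 0.29), Ndufa3 (-3.14 ± 0.29), Cox6c (-3.06 ± 0.31), Atp5o (-3.03 ± 0.27), Uqcrfs1 (-2.98 ± 0.26) and Cox6a1 (-2.94 ± 0.28) were lowest, each with an adjusted p of at most 9.80e-09. Cox6b2 was the member without a call (-1.27 ± 0.95, adjusted p 0.293). With library-size scaling 73 members were lower and 74.1% in place of 46.4% of all calls were higher. The median UMI count per cell was 5435 and 5618 in enteroendocrine-like and 14400 and 13390 in colonocyte-like cells.

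**Figure D3:**
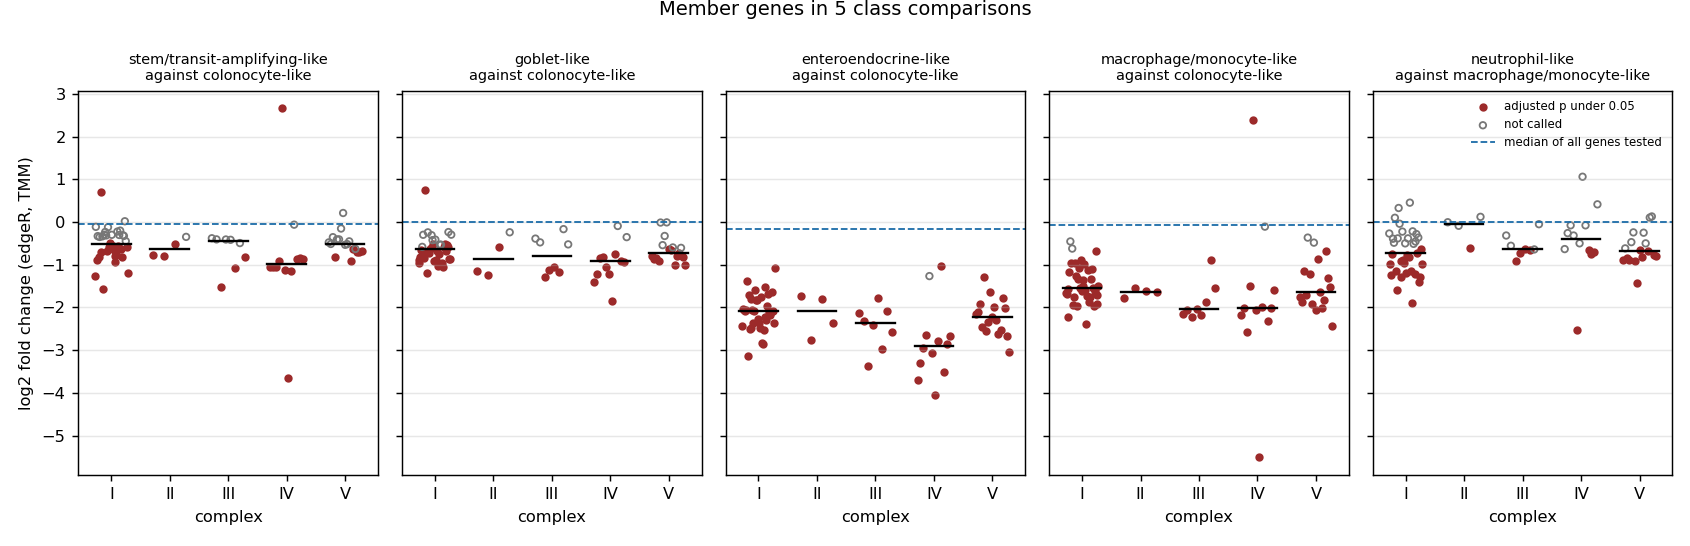
Log2 fold changes (edgeR, TMM) of the 77 tested members by complex in 5 class comparisons. Filled points passed an adjusted p of 0.05, open points did not, black bars are the medians of a complex, and the dashed line is the median of all genes. Members lie mostly below the dashed line, furthest in enteroendocrine-like cells (median -2.23), and the 2 points far from the rest in complex IV are Cox7a1 and Cox6b2.

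Macrophage/monocyte-like cells were lower than colonocyte-like cells in 71 of 77 members and higher in 1, while 29.8% of all genes were lower and 28.5% higher. The median was -1.62 over the members and -0.07 over all genes. Cox7a1 (-5.51 ± 0.34), Cox6a1 (-2.58 ± 0.28), Atp5o (-2.43 ± 0.26), Ndufb9 (-2.39 ± 0.28), Cox7b (-2.32 ± 0.30), Ndufa12 (-2.21 ± 0.23), Uqcrb (-2.21 ± 0.27), Uqcrc2 (-2.17 ± 0.22), Cox5a (-2.16 ± 0.29) and Uqcr10 (-2.16 ± 0.26) were lowest. Cox6b2 was higher (2.39 ± 0.38, adjusted p 7.46e-06). The 5 members without a call were Atp5e (-0.36 ± 0.26), Ndufa4 (-0.62 ± 0.27), Atp5g2 (-0.48 ± 0.27), Cox7a2l (-0.11 ± 0.20) and Ndufa2 (-0.45 ± 0.23).

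Neutrophil-like cells were lower than macrophage/monocyte-like cells in 39 of 77 members and higher in 0, against 20.4% of all genes lower and 23.6% higher. The median was -0.63 over the members and -0.01 over all genes. Complex I had 20 of 36 members lower, complex V 10 of 17, complex III 4 of 8, complex IV 4 of 12 and complex II 1 of 4. Cox6b2 (-2.52 ± 0.64), Ndufc2 (-1.90 ± 0.28), Ndufa5 (-1.60 ± 0.24), Atp5g2 (-1.43 ± 0.28), Ndufs8 (-1.40 ± 0.26), Ndufv1, the NADH-binding subunit of complex I (-1.30 ± 0.28), Ndufa9 (-1.28 ± 0.31), Ndufa11 (-1.25 ± 0.27), Ndufs3 (-1.21 ± 0.24) and Ndufb5 (-1.19 ± 0.23) were lowest. Cox8a, the ubiquitous form of subunit 8 of complex IV, was not called with TMM (0.41 ± 0.27, adjusted p 0.221 by edgeR) and was lower with library-size scaling (-0.75 ± 0.25, adjusted p 0.0112 by edgeR). DESeq2 called 44 members lower and 3 higher: Ndufb9 (0.60), Cox8a (0.56) and Ndufa7 (0.47). This comparison depended most on scaling: with library-size scaling 76 members were lower, and 16.2% in place of 53.7% of all calls were higher. The median over all genes was itself -1.09 with that scaling, so the count of 76 largely follows the shift of all genes. Relative to the median gene, the members stood at -0.62 with TMM and -0.69 with library-size scaling. The called count became 21 without macrophage/monocyte-like batch 2 and 21 without neutrophil-like batch 1.

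A few members did not share the common class order. Over 22 sums of class and batch, the log2 level of a tested member had a median Pearson correlation of 0.945 with the log2 summed level, as a description. The sums share their batches' free RNA, and the member is itself part of the total. The lowest correlations were those of Cox6b2 (0.131), Cox7a2l (0.650), Cox7a1 (0.700) and Atp5g2 (0.774). Among genes outside the family and the mitochondrial genome, the 5 highest were Chchd2 (0.975), Cox4i1 (0.969), Ndufab1 (0.968), Ghitm (0.961) and Sar1b (0.959). Cox4i1 and Ndufab1 are themselves subunits that the symbol patterns passed over.

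Cox7a1 (chr7:30184144-30186078, + strand, GENCODE M21) was concentrated in colonocyte-like cells, at 229 and 324 CPM in batches 1 and 2. Goblet-like cells had 80.0 and 91.6, stem/transit-amplifying-like cells 27.3 and 27.5 and enteroendocrine-like cells 24.4 and 31.0. Macrophage/monocyte-like cells had 6.30 and 6.23, fibroblast-like cells 2.20 and 3.91, and B-like cells 0 in both. The colonocyte-like values overlapped with no other class. In free RNA Cox7a1 stood at 125 and 183 CPM, and its part in the other classes' values was not tested. Cox7a2 (chr9:79755361-79759878, - strand), the form known as ubiquitous, stood at 1915 and 2064 in colonocyte-like, 1314 and 1363 in goblet-like, 1173 and 1144 in stem/transit-amplifying-like, 499 and 501 in macrophage/monocyte-like and 203 and 217 in neutrophil-like cells. Cox7a2l, which is known to join complexes III and IV into supercomplexes, lay between 138 and 271 in 10 classes and at 41.0 and 73.3 in neutrophil-like cells.

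Ndufa4 (chr6:11900292-11907497, - strand), named for complex I but since assigned to complex IV, was higher in stem/transit-amplifying-like and goblet-like than in colonocyte-like cells, and lower in enteroendocrine-like cells (-1.70 ± 0.28). It stood at 1461 and 1585 CPM in stem/transit-amplifying-like, 1403 and 1375 in goblet-like, 786 and 668 in colonocyte-like and 440 and 298 in enteroendocrine-like cells. The call of a higher level was lost with a mitochondrial limit of 10%, where Ndufa4 was 0.60 higher in stem/transit-amplifying-like (adjusted p 0.0857) and 0.69 higher in goblet-like cells (adjusted p 0.0592) by edgeR's quasi-likelihood test. Without filter on low counts, the first became 0.60 (adjusted p 0.0951 by edgeR). Leaving out either batch of a class compared also lost both calls, with the direction kept (0.64 to 0.79 and 0.69 to 0.84). Cox6b2 (chr7:4751792-4753094, - strand), an isoform known from testis, was rare, with 965 UMIs over all kept cells. It was highest in fibroblast-like cells at 24.2 and 24.6 CPM, followed by stem/transit-amplifying-like cells at 12.4 and 18.4, and stood at 1.96 and 1.70 in colonocyte-like cells. Its partner Cox6b1 stood at 1892 and 2005 in colonocyte-like and 423 and 498 in fibroblast-like cells.

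**Figure D4:**
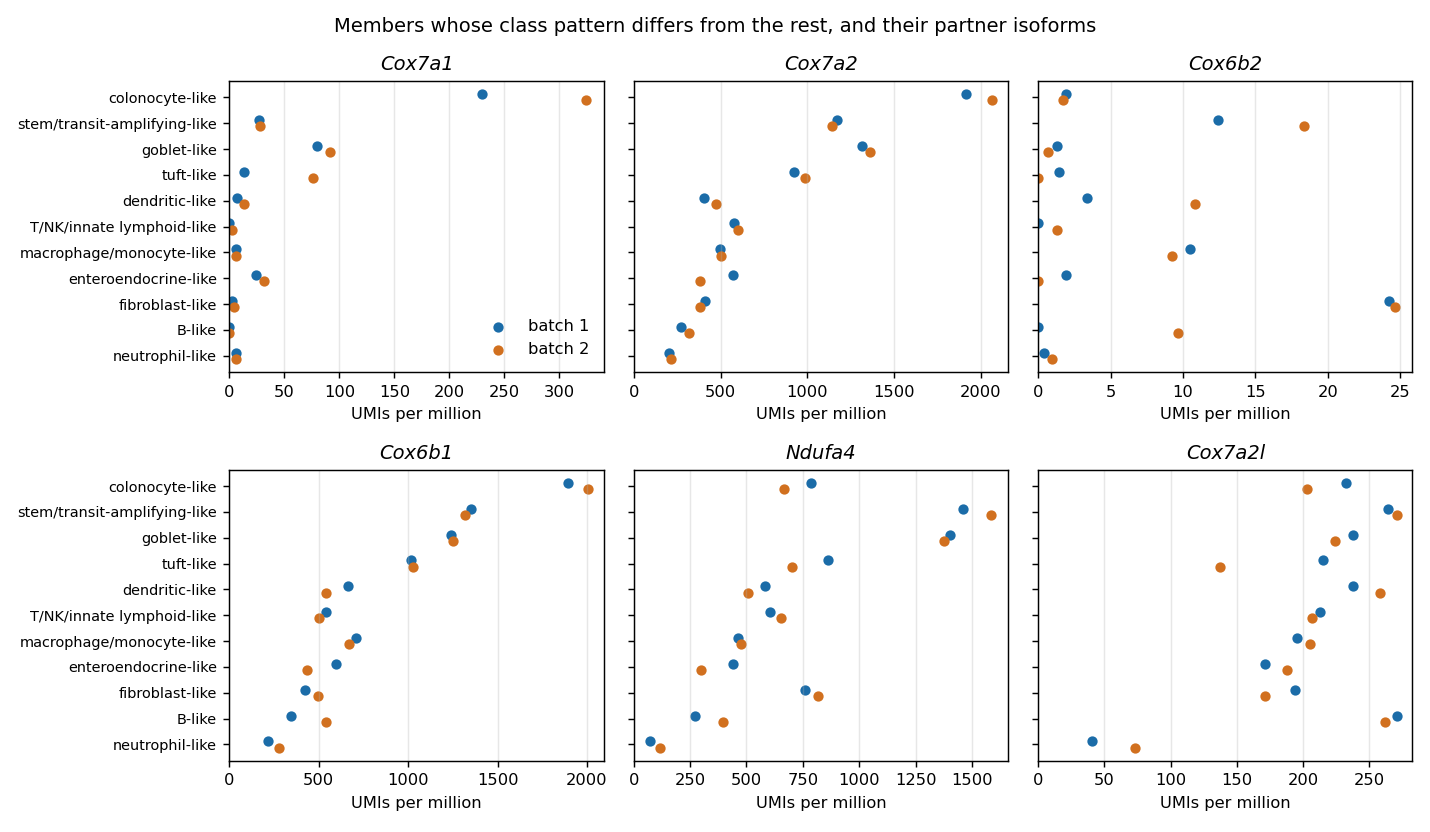
CPM of 6 complex IV or complex I-named members in 11 cell classes, each point 1 batch, classes ordered by the summed level. Cox7a1 peaks in colonocyte-like cells (229 and 324), Cox6b2 in fibroblast-like cells (24.2 and 24.6), Ndufa4 in stem/transit-amplifying-like cells (1461 and 1585), and Cox7a2l is nearly level outside neutrophil-like cells.

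The members with the most UMIs in each complex showed the same spread of patterns. Cox8a of complex IV stood at 3711 and 3839 CPM in colonocyte-like, 3272 and 3430 in goblet-like, 2663 and 2686 in stem/transit-amplifying-like and 665 and 810 in neutrophil-like cells. Uqcrb of complex III stood at 2366 and 2641 in colonocyte-like, against 1156 and 1170 in goblet-like and 1150 and 1102 in stem/transit-amplifying-like cells. Atp5e, the epsilon subunit of ATP synthase, varied less, between 920 and 1883 outside neutrophil-like cells, and 320 and 478 within them. Sdhb of complex II had 415 and 433 in colonocyte-like and 57.6 and 63.0 in neutrophil-like cells. Among the genes counted as complex I by symbol, Ndufa4 had the most UMIs.

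The 3 genes Atp5g1, Atp5g2 and Atp5g3 encode the same mature c subunit of the ATP synthase rotor, yet differed in class pattern. Against colonocyte-like cells, macrophage/monocyte-like cells were lower in Atp5g1 (-1.91 ± 0.28, adjusted p 2.12e-06 by edgeR) and Atp5g3 (-2.05 ± 0.24, adjusted p 6.62e-08 by edgeR). Atp5g2 stood at 488 and 500 CPM in macrophage/monocyte-like and 747 and 645 in colonocyte-like cells (-0.48 ± 0.27, adjusted p 0.130 by edgeR). The difference between the 3 genes was not tested. In the 4 genes of complex II, Sdha, Sdhb and Sdhc were lower in stem/transit-amplifying-like and in goblet-like than in colonocyte-like cells with TMM. Library-size scaling lost the calls of Sdhb (-0.43 ± 0.22) and Sdhc (-0.14 ± 0.17) in stem/transit-amplifying-like and of Sdhc (-0.40 ± 0.17) in goblet-like cells. Sdhd, a membrane anchor of that complex, was not called in either (-0.35 ± 0.21 and -0.24 ± 0.21 with TMM, 0.01 ± 0.21 and -0.06 ± 0.21 with library-size scaling).

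Other mitochondrial and metabolic genes were followed as lists of known pathway members. Of all genes tested with TMM, 27.1%, 21.6%, 27.1% and 29.8% were lower in stem/transit-amplifying-like, goblet-like, enteroendocrine-like and macrophage/monocyte-like than in colonocyte-like cells. In the same order 23.8%, 18.6%, 23.5% and 28.5% were higher. In neutrophil-like against macrophage/monocyte-like cells 20.4% were lower and 23.6% higher. Against colonocyte-like cells, the 13 mitochondrial-encoded subunits were lower in 9 (stem/transit-amplifying-like), 9 (goblet-like), 10 (enteroendocrine-like) and 13 cases (macrophage/monocyte-like), and none was higher. With library-size scaling 5, 6, 3 and 13 were lower. In neutrophil-like against macrophage/monocyte-like cells all 13 were higher with TMM (median 1.52) and 1 of 13 with library-size scaling (median 0.34). Relative to the median of all genes that list stood at 1.53 and 1.43 there, whereas the nuclear-encoded members stood at -0.62 and -0.69. The part of free RNA in this difference was not tested. Of the 6 tested subunits and carriers outside the symbol patterns, 2, 5, 5 and 5 were lower than in colonocyte-like cells and none was higher. With library-size scaling 1 of the 6 was higher in stem/transit-amplifying-like cells.

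Enzymes of the citric acid cycle were lower than in colonocyte-like cells in 5 of 16 cases in stem/transit-amplifying-like, 12 in goblet-like, 16 in enteroendocrine-like and 16 in macrophage/monocyte-like cells. The 5 of 16 in stem/transit-amplifying-like cells was near the 27.1% of all genes lower there. Cs, the citrate synthase, was lower by the most in stem/transit-amplifying-like and goblet-like cells (-1.76 and -1.81). With library-size scaling 8 were lower in goblet-like and 12 in enteroendocrine-like cells. In stem/transit-amplifying-like cells the list's median was -0.26 with TMM and 0.11 with library-size scaling, which called 3 higher and 3 lower. Glycolytic genes were also lower in these epithelial classes, 12 of 15 in stem/transit-amplifying-like, 14 in goblet-like and 14 in enteroendocrine-like cells. In neutrophil-like against macrophage/monocyte-like cells 7 of 15 glycolytic genes were higher with TMM, among them the glucose transporter Slc2a1 (2.41) and lactate dehydrogenase Ldha (1.26), and 1 was lower. With library-size scaling 1 was higher and 8 lower there.

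The 32 assembly factors, which help to build the complexes, had medians of 0.08, -0.22, -1.19 and -0.87 in the same 4 comparisons. In neutrophil-like against macrophage/monocyte-like cells 13 were lower and 3 higher, with a median of -0.88. With library-size scaling these medians were 0.44, -0.04, -0.45, -0.91 and -1.99, and 28 were lower and 2 higher in the neutrophil-like comparison. Of 12 tested regulators, 5, 3, 3 and 3 were higher than in colonocyte-like cells in the 4 comparisons. In turn 4, 3, 6 and 5 were lower, and the medians were 0.19, -0.20, -0.62 and -0.33. With library-size scaling 6, 3, 3 and 3 were higher and 4, 3, 2 and 5 lower. Nrf1 stood at 56.7 and 67.2 CPM in enteroendocrine-like and 22.5 and 18.9 in colonocyte-like cells. The receptor gene Esrra was lower than in colonocyte-like cells in all 4 comparisons (-1.48, -1.20, -2.54 and -1.91). Ppargc1b, a coactivator of respiratory genes, was lower in goblet-like (-1.34), enteroendocrine-like (-4.34) and macrophage/monocyte-like cells (-3.21). Pprc1, a related coactivator, was higher in all 4 comparisons (2.17, 1.77, 1.84 and 1.57). In stem/transit-amplifying-like cells the proliferation factor Myc was higher (2.41) and Hif1a, a factor of the hypoxia response, lower (-2.47). Of 7 tested mitochondrial redox genes, 6 were lower in enteroendocrine-like than in colonocyte-like cells (5 with library-size scaling). With TMM 1 was higher and 2 lower in stem/transit-amplifying-like cells, and 3 were lower in goblet-like cells. The 2 of 7 was near the 27.1% of all genes lower in stem/transit-amplifying-like cells. Macrophage/monocyte-like cells had 3 higher and 2 lower, with either scaling.

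No member passed the test between hashtags. A single hashtag was called on 2350 and 3159 cells, but 85.2% and 80.9% of colonocyte-like cells carried none. The Ctrl_WT calls were the weakest: in batch 1 the 2 fitted populations of tag counts had means of 125.8 and 136.3 UMIs. In colonocyte-like cells the summed level was 7.82% and 7.70% under Ctrl_WT (55 and 40 cells), 7.77% and 8.999% under Ctrl_DSS (85 and 147), 7.49% and 7.89% under TG_WT (171 and 104) and 6.97% and 7.70% under TG_DSS (34 and 30). TG_DSS overlapped with TG_WT and lay below Ctrl_DSS and, narrowly, Ctrl_WT (6.97% to 7.697% against 7.701% to 7.82%), and the other pairs overlapped. Within batches, TG_DSS minus TG_WT was -0.519 and -0.196 percentage points. TG_DSS minus Ctrl_DSS was -0.798 percentage points in batch 1 and -1.3 in batch 2. Beside this, median UMIs per cell were 10910.5 and 9474.5 under TG_DSS and 18017 and 17682 under Ctrl_DSS, and neutrophil markers took 0.0240% and 0.0214% against 0.0104% and 0.0114% of non-mitochondrial UMIs. The part of depth and of leukocyte RNA in the difference was not tested. The ratio of Ctrl_DSS to Ctrl_WT was 1.08 ± 0.124 (SD, n = 2 batches).

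In all epithelial-like cells the summed level was 7.01% and 7.17% under Ctrl_WT, 6.29% and 6.89% under Ctrl_DSS, 6.398% and 6.74% under TG_WT and 6.23% and 6.35% under TG_DSS. By this summed level Ctrl_WT was above the other tags in both batches. The median over cells did not keep that order in batch 1, with 5.69% under Ctrl_WT against 6.14% under Ctrl_DSS and 6.02% under TG_WT. In batch 2 the median over cells was highest under Ctrl_WT, narrowly above Ctrl_DSS. Of the epithelial-like cells, 55.0% and 69.0% were colonocyte-like under Ctrl_WT and 27.96% and 37.8% under Ctrl_DSS, while 15.0% and 15.5% against 40.8% and 41.4% were goblet-like. Within colonocyte-like cells alone the median log2 fold change of Ctrl_DSS against Ctrl_WT was 0.12 over 76 tested members, and in all epithelial-like cells it was -0.14 over 77. The colonocyte-like cells are part of the epithelial-like cells, and the 4 epithelial-like comparisons reported next share tags with each other.

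No member passed an adjusted p of 0.05 by edgeR's quasi-likelihood test in any of the 8 hashtag comparisons. In epithelial-like cells this was 0 of 77 members for TG_WT against Ctrl_WT (0% of all genes called, 1 member at an unadjusted p under 0.05), for Ctrl_DSS against Ctrl_WT (0.0256% of genes, 2 members), for TG_DSS against TG_WT (0.00853%, 3 members) and for TG_DSS against Ctrl_DSS (0.0768%, 1 member). The count was 0 of 76 for Ctrl_DSS against Ctrl_WT in colonocyte-like cells (0.0103% of genes, 0 members unadjusted) and for Ctrl_DSS against TG_WT in goblet-like cells (0.22%, 1 member). It was 0 of 70 for TG_DSS against TG_WT in macrophage/monocyte-like cells (0%, 0 members) and 0 of 71 in neutrophil-like cells (0.0378%, 0 members). The spread in the goblet-like and neutrophil-like fits rested on few sums: no fit could be made with a compared sum left out. DESeq2 called 1 member, Ndufa4, lower in TG_DSS against Ctrl_DSS (-0.48 ± 0.13, adjusted p 0.0162) and 0 members in the other 7 comparisons. Of the epithelial-like cells, 14.8% and 19.6% were goblet-like under TG_DSS and 40.8% and 41.4% under Ctrl_DSS, and Ndufa4 was higher in goblet-like than in colonocyte-like cells. The part of cell makeup in this call was not tested. With so few genes called at all, a lack of calls does not show that the members were alike.

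**Figure D5:**
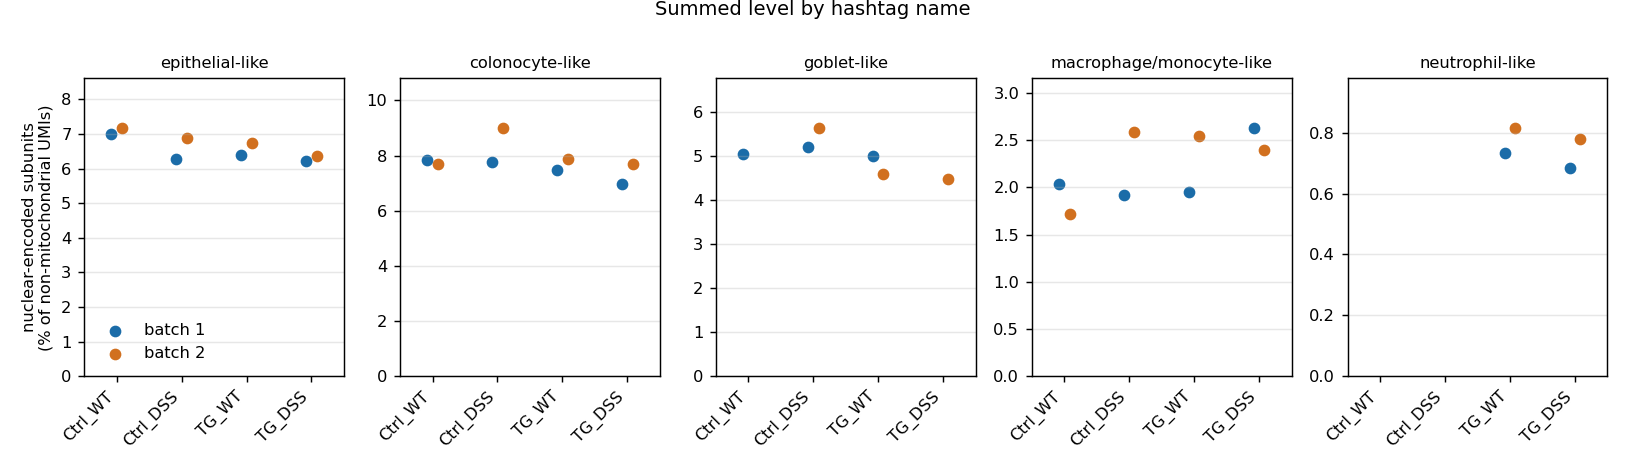
Summed level of the nuclear-encoded subunits (percent of non-mitochondrial UMIs) by hashtag name in 5 cell classes, each point the sum of 1 batch with at least 10 cells. In colonocyte-like cells Ctrl_DSS ran from 7.77% to 8.999%.

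The members' medians in the epithelial-like comparisons were -0.07, -0.14, -0.17 and -0.10 in the order above, against 0.01, 0.02, -0.02 and -0.02 over all genes. In TG_DSS against TG_WT, 74 of 77 members had a negative log2 fold change and none passed the test. The members were read from the same sums, so their signs are not separate observations. Median UMIs per epithelial-like cell were 12738 and 7221.5 under TG_DSS and 16243 and 12344 under TG_WT. The part of depth in these signs was not tested. Cox7a1 had a log2 fold change of -0.80 ± 0.25 in Ctrl_DSS against Ctrl_WT (adjusted p 0.221 by edgeR). It passed without filter on low counts (-0.75 ± 0.20, adjusted p 0.0114 by edgeR). In colonocyte-like cells alone it was -0.01 ± 0.33. Its levels there were 241 and 375 CPM under Ctrl_WT, 206 and 419 under Ctrl_DSS, 227 and 193 under TG_WT and 266 and 228 under TG_DSS. In goblet-like cells the members' median was 0.06 for Ctrl_DSS against TG_WT, with summed levels of 5.22% and 5.65% against 5.001% and 4.60%. Median UMIs per cell were 22190.5 and 22615 against 13643 and 14144 there, and the part of depth was not tested.

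In leukocyte-like classes the summed level of macrophage/monocyte-like cells was 2.04% and 1.72% under Ctrl_WT, 1.92% and 2.58% under Ctrl_DSS, 1.95% and 2.54% under TG_WT and 2.63% and 2.39% under TG_DSS. All pairs overlapped except Ctrl_WT and TG_DSS. Neutrophil markers took 0.1267% and 0.12% of non-mitochondrial UMIs in these cells under TG_DSS and 0.0315% and 0.0579% under TG_WT, and their part was not tested. Neutrophil-like cells could be compared for 2 tags, with 0.733% and 0.816% under TG_WT (15 and 280 cells) and 0.683% and 0.779% under TG_DSS (601 and 527 cells). Within batches the difference TG_DSS minus TG_WT was -0.05 and -0.0367 percentage points. The members' median there was 0.01 with TMM and -0.10 with library-size scaling, against 0.11 and 0.05 over all genes.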

How the data were processed

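The deposited values are raw UMI counts per gene and barcode, made by the authors with Cell Ranger 7.0.0 on mm10 per the submitters' processing notes, while the file headers name another Cell Ranger release. No source used here names the annotation release, and all 82 members matched GENCODE M21 by identifier. How reads shared with pseudogene copies were counted is likewise unstated, so members with such copies are uncertain. The members and lists were chosen with earlier results of these data known.

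The batches held 133919905 and 95408149 UMIs over all barcodes. Cells were called from these (UMIs of at least 0.1 times those at percentile 99 in the top 14000, or at least 500 UMIs and a profile departing from free RNA at an adjusted p of at most 0.01 over 10000 draws). Cells were kept from 250 detected genes and up to 25% mitochondrial UMIs, 7152 and 6466. A class needed at least 3 of its markers and a lead of 10 percentage points of the list over the next class. The rule assigned no class to 3.34% and 7.32% of cells. A further 11.2% and 4.44% were epithelial-like with no subtype, led by cell cycle genes such as Birc5 and Ccna2; they enter the epithelial-like sums but not the stem/transit-amplifying-like class. Mixed cells held at least 40% of the epithelial list and of the neutrophil or macrophage list. No doublet caller was run. Hashtags were called with a 2-component mixture per batch and tag, at the upper crossing of the components. Cells over several thresholds (266 and 699) were left out of the hashtag sums but kept in the class sums. In batch 2 they made up 224 of the 1058 neutrophil-like and 129 of the 711 macrophage/monocyte-like cells. A first rule had put thresholds near the median tag count, so the tag threshold, like the gate, was set after seeing the data.

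Counts were summed per class or tag and batch (at least 20 or 10 cells) and fitted in edgeR 4.0.16 under R 4.3.3 (TMM, filterByExpr, batch as a block because the labels give 1 pool per batch). Deviations of sums from their class means correlated within a batch by a median of 0.0212. DESeq2 1.42.0 was an alternative. The tests were tested on simulated data. Named members are those past an adjusted p of 0.05 with the same sign in both batches, up to 10 in each direction, the member with the most UMIs per complex, tissue isoforms with their partners, and the 4 Sdh genes.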

Additional observations from a re-analysis of the deposited data

How the results depend on the processing

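The 54 log2 fold changes of members named for the size of their change kept their direction under each alternative that was run, and the calls lost among them were those of Ndufa4. The 18 members named for other reasons (most UMIs in a complex, isoforms, Sdh genes) gave 90 results, 64 of them called. None of these 64 took the other sign under an alternative that was run. Library-size scaling lost 11 of the calls, among them Sdhb and Sdhc in stem/transit-amplifying-like and Sdhc and Cox7a2 in goblet-like cells. Other alternatives lost 4 (Ndufa4 in both classes, Cox6b2 in goblet-like and Sdhc in neutrophil-like cells), and leaving out a sum lost 20. Of the 26 results not called, 9 took the other sign with library-size scaling. With library-size scaling, an alternative chosen after seeing the data, the members called were 16 in stem/transit-amplifying-like, 35 in goblet-like and 76 in neutrophil-like cells, in place of 43, 54 and 39. Leaving out each sum in turn gave 14 to 50 members called for stem/transit-amplifying-like, 24 to 63 for goblet-like, 76 to 76 for enteroendocrine-like, 70 to 76 for macrophage/monocyte-like and 21 to 44 for neutrophil-like cells, and 0 to 0 in the hashtag comparisons where it could be fitted. Between hashtags, no fit could be made for neutrophil-like cells with a sum left out, nor for goblet-like cells without a sum of Ctrl_DSS or TG_WT. Too few sums remained there to estimate the spread. Without the batch as a replicate block, the pairing of sums by batch being given by the labels, 45, 54, 76, 73 and 39 members were called and 0 in each hashtag comparison. Without filter on low counts 1 member was called in epithelial-like cells for Ctrl_DSS against Ctrl_WT, and DESeq2 called 1 for TG_DSS against Ctrl_DSS. The causes were not tested. Leaving out mitochondrial genes, other mitochondrial limits, a stricter gate, the highest-tag rule and cells with few leukocyte markers kept each count within 1.5 times. The ratio of colonocyte-like to neutrophil-like levels ran from 8.05 (mean over cells) to 10.0 (mitochondrial limit 10%). Few cells per tag and class limit the hashtag comparisons.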
